A study of Mus musculus with 12 samples.

Results

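The 8 genes described here encode enzymes and carriers of the retinoid (visual) cycle: the retinol dehydrogenases Rdh8, Rdh12, Rdh11 and Rdh5, the retinaldehyde reductase Dhrs3, the isomerohydrolase Rpe65, the acyltransferase Lrat and the retinol receptor Stra6. They were chosen by their known function, with earlier results of these data known. All 8 were found by symbol among the 53707 genes of the deposited gene table. The RNA came from retinal explants, which are whole neural retinas kept alive in culture, of wild-type C57Bl/6J mice at 28 days of age. All explants were held for 48 hours in Neurobasal-A medium, and the groups differed in the glucose added, 5 mM or 25 mM. The sclera and the retinal pigment epithelium (RPE) were taken off at dissection, so that the model holds the neural retina without its usual partner tissue. Each concentration had 3 biological replicates, and every biological replicate was sequenced as 2 technical replicates, 1 in each of 2 labelled batches, giving 12 libraries. The sources do not state whether the biological replicates were separate animals, nor what a technical replicate was, so the p-values measure the spread between these samples and no more.

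In the visual cycle, light turns the 11-cis-retinal bound to an opsin into all-trans-retinal. Dehydrogenases of the photoreceptor reduce the released aldehyde to all-trans-retinol, which moves to the RPE, where Lrat makes it into an ester, Rpe65 isomerizes the ester to 11-cis-retinol, and 11-cis-retinol dehydrogenases such as Rdh5 oxidize it to 11-cis-retinal for the return to the photoreceptor. Stra6 takes up retinol from its blood carrier at the RPE, and Müller glia run a further branch of the cycle that serves cones. The comparison of 25 mM with 5 mM glucose asks how the amount of glucose alters gene expression in the retina, and the values below give its readout in this pathway.

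Libraries held between 14815285 and 36692484 estimated counts, and after the technical replicates were summed each biological replicate held 37944826 to 60098862. Levels are given as CPM, counts scaled to a common library total with TMM factors, for the summed replicates 1, 2 and 3 of each group in that order unless libraries are named. Changes are log2 fold changes of 25 mM over 5 mM from edgeR's quasi-likelihood test with 3 replicates against 3, and FDR is the p-value after Benjamini-Hochberg adjustment over all 21061 genes tested. Over all genes, 417 had an FDR under 0.05, which is 1.98%, and 0 had both a fold over 2 and an FDR under 0.01, while 6052 (28.7%) had an unadjusted p under 0.05. Technical replicates of 1 sample could differ widely. The second library of 5 mM replicate 1 and the first library of 25 mM replicate 2 were left out in turn as alternatives chosen after seeing the data, and the values without them stand beside the results they touch.

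Of the 8 genes, 2 rose at 25 mM glucose with an FDR under 0.05, Rdh8 and Rdh12, and 0 fell. Both encode enzymes with which photoreceptors clear retinal. Over all genes tested, 1.98% passed this threshold, 1.47% upwards and 0.513% downwards. The test was run on 7 of the 8, because Rpe65 had too few counts. The median log2 fold change of these 7 was 0.19, beside -0.01 over all genes. Of the 7, 0 passed the stricter threshold of a fold over 2 and an FDR under 0.01.

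**Figure D1:**
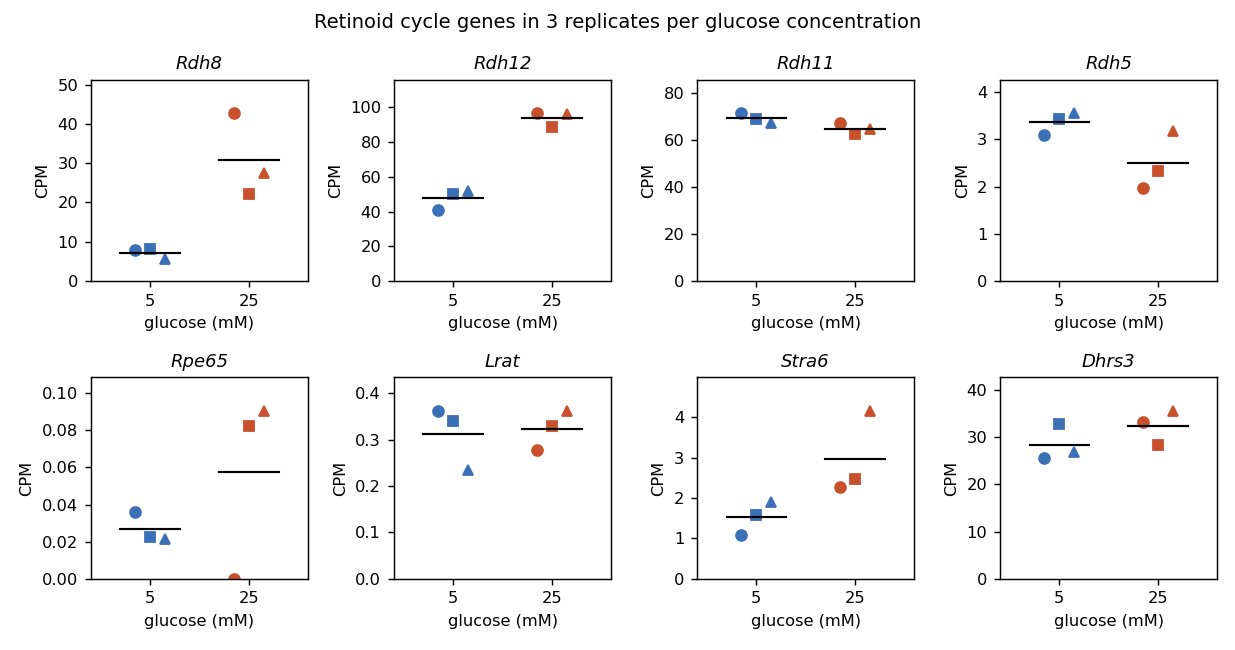
CPM (vertical axis, from 0, a scale for each gene) at 5 and 25 mM glucose for the 8 retinoid cycle genes. Points are the summed biological replicates 1 (circle), 2 (square) and 3 (triangle), and lines are the means of 3. In Rdh8, Rdh12 and Stra6 every 25 mM point lies above every 5 mM point, and Rpe65 stays under 0.1 CPM in all 6.

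Rdh8 (ENSMUSG00000053773, GRCm38 chromosome 9, 20818503 to 20826117, plus strand) encodes the all-trans-retinol dehydrogenase of photoreceptor outer segments. Its levels were 7.80, 8.21 and 5.62 CPM at 5 mM glucose and 42.7, 22.2 and 27.6 CPM at 25 mM. The groups did not overlap, and the lowest replicate at 25 mM stood far above the highest at 5 mM. The means were 7.21 ± 1.40 CPM and 30.8 ± 10.6 CPM (SD, n = 3 each). The fitted change was 4.27-fold, a log2 fold change of 2.10 (standard error 0.30, 95% interval 1.41 to 2.78), with an FDR of 0.0271 (edgeR). The estimated counts behind these levels summed to 1059 at 5 mM and 3872 at 25 mM, so that the spread between replicates and not counting limits the precision. Rdh8 has 1 annotated transcript, a protein-coding one, which held all of its counts.

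Rdh12 (ENSMUSG00000021123, chromosome 12, 79208914 to 79222665, plus strand) encodes a dehydrogenase of photoreceptor inner segments that reduces retinals, and its human counterpart is a gene of early-onset retinal dystrophy. It measured 41.1, 50.3 and 52.1 CPM at 5 mM and 96.6, 88.8 and 96.3 CPM at 25 mM. Replicates within a group lay close together and the groups were well apart. The means were 47.8 ± 5.92 and 93.9 ± 4.43 CPM (SD, n = 3 each). The log2 fold change was 0.97 (standard error 0.16, 95% interval 0.60 to 1.35), a 1.96-fold rise, with an FDR of 0.0359 (edgeR).

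Both calls depended on the libraries used, as did those of all genes. With 5 mM replicate 2 or 3, 25 mM replicate 1 or 2, or the first library of 25 mM replicate 2 left out, 0 of all genes tested had an FDR under 0.05, so that the loss of a call in these fits is not particular to Rdh8 or Rdh12. With 2 replicates left on one side, the FDR of Rdh8 was 0.109 without 5 mM replicate 2, 0.159 without 5 mM replicate 3, 0.118 without 25 mM replicate 1 and 0.101 without 25 mM replicate 2 (edgeR). It was 0.0115 without 5 mM replicate 1 and 0.0414 without 25 mM replicate 3, fits in which 26.6% and 2.27% of all genes passed. For Rdh12 the same 4 omissions gave 0.145, 0.159, 0.121 and 0.151, and omission of 25 mM replicate 3 gave 0.0523 (edgeR). Over these fits the log2 fold change of Rdh8 stayed between 1.80 and 2.30 and that of Rdh12 between 0.87 and 1.03. Without the first library of 25 mM replicate 2 the FDR was 0.129 for Rdh8 and 0.133 for Rdh12 (edgeR). The log2 fold changes in that fit were 1.95 and 0.87. Without the second library of 5 mM replicate 1 both FDR values stayed under 0.05 (0.0215 and 0.0246, edgeR), where 8.27% of all genes passed.

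The single libraries show where the spread of Rdh8 lay. In batch 1 the 3 libraries at 5 mM had 3.15, 4.82 and 4.11 CPM of Rdh8 and the 3 at 25 mM had 31.9, 39.1 and 31.5 CPM. In batch 2 the values were 14.0, 12.5 and 6.94 CPM at 5 mM and 56.0, 13.0 and 23.8 CPM at 25 mM. The concentrations were apart in batch 1 and overlapped in batch 2, where 25 mM replicate 2 lay below 5 mM replicate 1. With batch 1 alone the log2 fold change of Rdh8 was 3.06 with an FDR of 0.00758, and with batch 2 alone it was 1.45 with an FDR of 0.400 (edgeR, 3 libraries against 3). No gene of the genome had an FDR under 0.05 in batch 2 alone, where 954 higher and 1249 lower genes had an unadjusted p under 0.05.

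Rdh12 did not overlap between the concentrations in either batch. Its libraries at 5 mM had 39.4, 57.0 and 57.5 CPM in batch 1 and 42.0, 40.9 and 46.7 CPM in batch 2. Those at 25 mM had 73.6, 132 and 91.3 CPM in batch 1 and 125, 66.7 and 99.4 CPM in batch 2. The log2 fold change was 0.92 in batch 1 (FDR 0.0462) and 1.16 in batch 2 (FDR 0.391, edgeR). All 6 libraries at 25 mM thus lay above all 6 at 5 mM, although the technical replicates of 25 mM replicates 1 and 2 differed by more than the means of the groups.

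**Figure D2:**
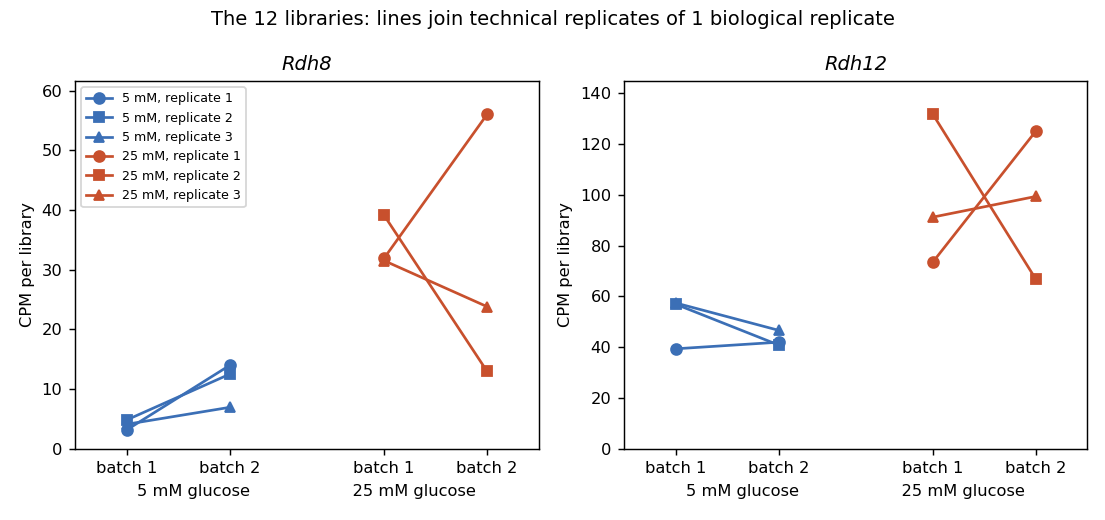
CPM per library (vertical axis, from 0) of Rdh8 and Rdh12 in the 12 libraries, by batch and glucose concentration. Lines join the technical replicates of 1 biological replicate. The 25 mM libraries of Rdh12 (66.7 to 132 CPM) all lie above those at 5 mM (39.4 to 57.5 CPM), while 1 library of Rdh8 at 25 mM (13.0 CPM) lies below 1 at 5 mM (14.0 CPM).

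The bases before the transcription start of the 2 genes that rose are shown because both are photoreceptor genes, with those of Rbp3, a photoreceptor gene of the same pathway that also rose (below). They are from RefSeq on GRCm38.p6, in which all 8 genes were matched, and each runs over the 250 bases that end just before the start, on the plus strand: chr9:20818244-20818493 for Rdh8, chr12:79208663-79208912 for Rdh12 and chr14:33953753-33954002 for Rbp3. Capitals mark matches, on either strand, to any of 5 motifs: TAATCC, the core bound by CRX and OTX2; TGCTGA, a part of the NRL element; the GC box GGGCGG; the E-box CACGTG; and the TATA box TATAAA.
Rdh8: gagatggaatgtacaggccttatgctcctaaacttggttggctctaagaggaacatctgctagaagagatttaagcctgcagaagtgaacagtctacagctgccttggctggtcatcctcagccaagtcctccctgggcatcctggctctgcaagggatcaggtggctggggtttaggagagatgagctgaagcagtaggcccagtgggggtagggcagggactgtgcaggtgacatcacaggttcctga
Rdh12: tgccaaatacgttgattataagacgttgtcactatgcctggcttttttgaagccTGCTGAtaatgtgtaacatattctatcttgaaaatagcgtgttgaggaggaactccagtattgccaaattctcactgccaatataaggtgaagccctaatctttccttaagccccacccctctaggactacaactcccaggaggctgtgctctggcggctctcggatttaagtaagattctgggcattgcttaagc
Rbp3: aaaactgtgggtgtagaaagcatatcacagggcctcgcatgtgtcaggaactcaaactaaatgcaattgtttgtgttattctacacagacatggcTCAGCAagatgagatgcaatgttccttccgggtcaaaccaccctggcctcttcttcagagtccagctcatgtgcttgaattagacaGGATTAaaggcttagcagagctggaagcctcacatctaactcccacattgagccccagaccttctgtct
The Rdh8 stretch held 0 matches to the 5 motifs. The Rdh12 stretch held 1, TGCTGA starting at position -196. The Rbp3 stretch held TAATCC, read as GGATTA, at -69 and the reverse of TGCTGA at -155. Of stretches searched but not printed, those of Rdh5 (-100), Lrat (-45), Cyp26a1 (-239) and starts 1, 2 and 4 of Stra6 held GGGCGG or its reverse. Start 2 of Rdh11 had CACGTG at -230 and -182, and start 1 of Stra6 had TGCTGA at -32. Matches before Rpe65 and Abca4 are given below. Among 32851 promoter stretches of the same length, 6.25% held TAATCC, 16.1% TGCTGA, 32.7% GGGCGG, 6.02% CACGTG and 12.4% TATAAA. These are matches of letters in a window and nothing is read from them about binding.

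The counts of Rdh12 fell mostly on the coding transcript Rdh12-201, which held 82.7% of them over all libraries, and 16.0% fell on Rdh12-204, annotated as retaining an intron. The retained-intron share was 15.9%, 7.98% and 8.64% in the replicates at 5 mM and 17.2%, 24.8% and 16.3% at 25 mM. The highest replicate at 5 mM and the lowest at 25 mM were nearly level. The protein-coding transcripts measured 35.1, 45.3 and 46.5 CPM at 5 mM and 77.8, 70.1 and 82.5 CPM at 25 mM, and the retained-intron transcript 6.62, 3.93 and 4.40 CPM and 16.2, 23.1 and 16.0 CPM. Neither kind overlapped between the groups, and the ratio of the means was 1.82 for the coding transcripts and 3.70 for the retained intron, given as values with no test. In batch 1 the share ranged from 6.73% to 12.6% at 5 mM and from 16.4% to 30.3% at 25 mM, whereas in batch 2 the ranges were 6.53% to 20.1% and 15.9% to 18.4% and overlapped.

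**Figure D3:**
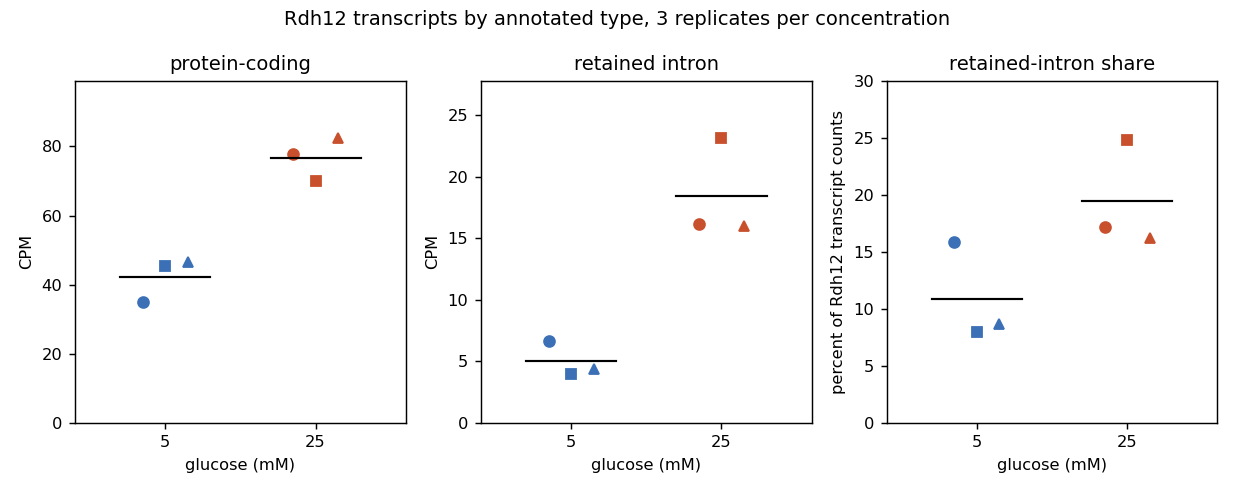
Rdh12 at 5 and 25 mM glucose by annotated transcript type: CPM of the protein-coding transcripts (left), CPM of the retained-intron transcript (middle) and the percent of Rdh12 transcript counts on the latter (right). Points are biological replicates 1 (circle), 2 (square) and 3 (triangle), and lines are means of 3. Both kinds of transcript were higher at 25 mM, with ratios of means of 1.82 and 3.70.

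Rdh11 (ENSMUSG00000066441, chromosome 12, 79174337 to 79192293, minus strand) encodes a related retinal reductase of wide expression and is the neighbor of Rdh12 on the other strand. It measured 71.3, 68.7 and 67.3 CPM at 5 mM and 67.3, 62.5 and 64.7 CPM at 25 mM. The groups all but touched, with 67.29 CPM in the lowest 5 mM replicate and 67.28 CPM in the highest at 25 mM. The change was small beside that of Rdh12. The log2 fold change was -0.09 (standard error 0.14, 95% interval -0.42 to 0.24) with an FDR of 0.688 (edgeR), and 0.03 when transcript counts were summed per gene. The ratio of Rdh12 to Rdh11 within a summed replicate was 0.576, 0.731 and 0.775 at 5 mM and 1.44, 1.42 and 1.49 at 25 mM. Scaling between the summed replicates cannot alter it, but the weight of the 2 libraries in each sum can. In 25 mM replicate 2 these libraries had 132 and 66.7 CPM of Rdh12 beside 61.3 and 65.6 CPM of Rdh11. Rdh12 had fewer counts than Rdh11 in every replicate at 5 mM and more in every replicate at 25 mM. This order is of counts not divided by transcript length. As TPM, which divides by it (below), Rdh12 averaged 51.2 and Rdh11 42.9 at 5 mM, and their replicates overlapped. How the counting shared reads between these related genes is not given in the sources used here.

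Dhrs3 (ENSMUSG00000066026, chromosome 4, 144892827 to 144928209, plus strand) encodes a reductase that returns all-trans-retinal to retinol and so holds back retinoic acid synthesis. It measured 25.5, 32.7 and 26.8 CPM at 5 mM and 33.1, 28.4 and 35.5 CPM at 25 mM. The groups overlapped. The log2 fold change was 0.19 (standard error 0.19, 95% interval -0.24 to 0.62) with an FDR of 0.519 (edgeR). Its retained-intron transcript, Dhrs3-204, held 0.969%, 0.970% and 0.664% of its transcript counts at 5 mM and 2.44%, 1.54% and 1.96% at 25 mM. As for Rdh12, this share was higher in every 25 mM replicate, the ranges overlapped in batch 2 and no test was run. It rested on 8.15 to 36.6 counts per replicate.

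The other 4 genes are known from the RPE. Rpe65 (ENSMUSG00000028174, chromosome 3, 159599175 to 159625321, plus strand), the isomerohydrolase, had 1.8, 1.1 and 1.1 estimated counts at 5 mM and 0, 3.2 and 3.6 at 25 mM, at most 0.09 CPM. A count of 0 allows a level of up to 0.0696 CPM in 25 mM replicate 1 (3 counts of its total, counting error only). No fold is given, since both groups lay near this floor. The 250 bases before its start held TAATCC at -42. Lrat (ENSMUSG00000028003, chromosome 3, 82892579 to 82903973, minus strand), which esterifies retinol, had 0.361, 0.339 and 0.234 CPM at 5 mM and 0.278, 0.328 and 0.362 CPM at 25 mM. These groups overlapped throughout, with a log2 fold change of 0.05 (standard error 0.38, 95% interval -0.82 to 0.92, FDR 0.946, edgeR) on 46.1 and 39.6 counts, too few to show a change of moderate size.

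Rdh5 (ENSMUSG00000025350, chromosome 10, 128913593 to 128922888, minus strand), the 11-cis-retinol dehydrogenase of the RPE, measured 3.09, 3.44 and 3.55 CPM at 5 mM and 1.97, 2.33 and 3.19 CPM at 25 mM. The groups overlapped by 1 replicate, and the log2 fold change was -0.43 (standard error 0.28, 95% interval -1.07 to 0.21, FDR 0.333, edgeR). These counts may not all stand for Rdh5, because its exons share 720 bases with Bloc1s1 on the same strand. Only 8.34% of its transcript counts lay on Rdh5-201, while 35.7% lay on Rdh5-202, and 17.2% and 29.5% on the retained-intron transcripts Rdh5-204 and Rdh5-207. The share of these last transcripts was 44.6% to 50.9% of the counts in the replicates at 5 mM and 39.8% to 58.0% at 25 mM.

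Stra6 (ENSMUSG00000032327, chromosome 9, 58063788 to 58153996, plus strand), the membrane receptor that takes retinol from its binding protein, measured 1.08, 1.58 and 1.89 CPM at 5 mM and 2.27, 2.46 and 4.16 CPM at 25 mM. All replicates at 25 mM lay above those at 5 mM. The log2 fold change was 0.97 (standard error 0.35, 95% interval 0.15 to 1.78), about the same as that of Rdh12, but the wider spread left an FDR of 0.126 at an unadjusted p of 0.0251 (edgeR). In batch 1 its libraries overlapped, with 0.678 to 1.19 CPM at 5 mM and 1.05 to 3.78 CPM at 25 mM, and in batch 2 they did too.

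Counted without a test, 3 of the 7 genes tested were higher in every 25 mM replicate (Rdh8, Rdh12 and Stra6) and 1 was lower in every one (Rdh11). For Rdh11 the margin was 67.29 against 67.28 CPM. The count of 4 without overlap became 3 when scaled by library totals or with transcript counts summed per gene. Over all genes tested 31.8% had groups that did not overlap, 16.0% with the higher and 15.8% with the lower level at 25 mM, so such a pattern alone was common in these data.

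Levels of the 8 genes can be set against each other as TPM, which divides by transcript length. At 5 mM the order was Rdh12 with a mean of 51.2 TPM, Rdh11 with 42.9, Dhrs3 with 35.7, Rdh8 with 9.66, Rdh5 with 7.92, Stra6 with 1.05, Lrat with 0.110 and Rpe65 with 0.0292. The replicates of Rdh12 and Rdh11, of Rdh11 and Dhrs3, and of Rdh8 and Rdh5 overlapped, so these neighbors in the order do not differ beyond their spread. At 25 mM the order began with Rdh12 (109 TPM), then Rdh8 (45.6), Rdh11 (44.3) and Dhrs3 (44.2), of which the last 3 overlapped, and went on with Rdh5 (6.35), Stra6 (2.16), Lrat (0.122) and Rpe65 (0.0641). Rdh8 thus moved from the level of Rdh5 to that of Rdh11 and Dhrs3.

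The RPE had been removed, and its defining genes were checked beside these values. Of 14 RPE and pigment cell markers, 11 were tested and 0 passed an FDR of 0.05, with 7 log2 fold changes below 0 and a median of -0.58. The pathway list described further on also holds Rgr, Rrh and Ttr, of which Müller glia or other retinal cells can express Rgr. The pigment genes Tyr, Pmel, Mlana and Slc45a2 and the RPE channel gene Best1 were under 1 CPM in every replicate, as were Rpe65 and Lrat. The melanin synthesis gene Tyrp1 had 1.23, 0.475 and 0.957 CPM at 5 mM and 0.278, 0.137 and 0.339 CPM at 25 mM (log2 fold change -1.80, FDR 0.0750), and the tight junction gene Cldn19 had a log2 fold change of -1.75 (FDR 0.0608, edgeR). The retinal G protein-coupled receptor gene Rgr, a photoisomerase of RPE and Müller glia, went the other way at a low level, from 0.235, 0.498 and 0.830 CPM to 1.58, 1.56 and 1.02 CPM (log2 fold change 1.41, FDR 0.103). The other markers tested had log2 fold changes of 0.78 (Slc6a20a), 0.70 (Krt18), 0.35 (Rrh), -0.32 (Tyr), -0.58 (Dct), -0.75 (Mitf), -0.78 (Best1) and -0.83 (Ttr), none with an FDR under 0.05. Summed over the 14 markers, the level was 38.5 to 54.0 CPM at 5 mM and 42.1 to 58.7 CPM at 25 mM, most of it from Krt18, Mitf and Rrh. The sum of Rpe65, Lrat, Rdh5 and Stra6 lay between 4.57 and 5.70 CPM and between 4.52 and 7.80 CPM, so both sums overlapped between the concentrations. The part of remaining RPE in the values of these 4 genes was not tested.

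**Figure D4:**
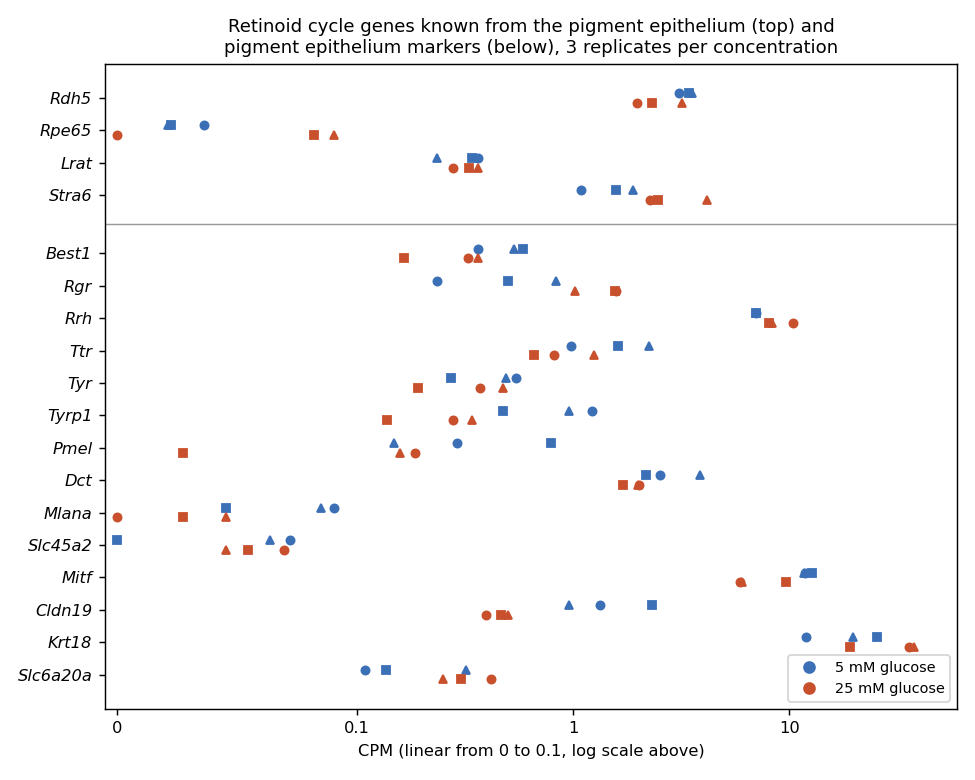
CPM (horizontal axis, linear from 0 to 0.1 and logarithmic above) of Rdh5, Rpe65, Lrat and Stra6 above the line and of the 14 RPE and pigment cell markers below it. Points are biological replicates 1 (circle), 2 (square) and 3 (triangle) at 5 and 25 mM glucose. Rpe65, Mlana and Slc45a2 stay under 0.1 CPM, and Tyrp1, Dct, Mitf and Cldn19 lie lower and Rgr, Rrh and Stra6 higher in every replicate at 25 mM.

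Rod markers moved in the same direction as Rdh8 and Rdh12, by unequal amounts. Of 18 rod genes, 18 had a log2 fold change above 0, and 8 rose with an FDR under 0.05: Pde6a, Pde6b, Cnga1, Nrl, Nr2e3, Pdc, Prph2 and Rp1. In 12 of the 18 the groups did not overlap, all higher at 25 mM, beside 16.0% of all genes. Gnat1 (0.45, FDR 0.308), Rom1 (0.36, FDR 0.467) and Pde6g (0.24, FDR 0.693, edgeR) were among those that overlapped. The median log2 fold change of the 18 was 1.02. That of Rdh12 (0.97) lay near this median, with 10 of the 18 rod genes above it, and that of Rdh8 (2.10) was exceeded by 2 of the 18. The summed rod level was 4766 to 7366 CPM at 5 mM and 11710 to 15696 CPM at 25 mM. In a bulk sample a larger part of rods and more of these RNAs per rod cannot be told apart. The ratio of Rdh12 to the rod transcription factor gene Nr2e3, a gene set beside it after its values were seen, was 0.809, 0.990 and 1.01 at 5 mM and 0.884, 0.949 and 0.952 at 25 mM and overlapped. Nr2e3 ranked 3 among 16411 genes in nearness to Rdh12 over these same libraries, so a level ratio followed from the gene chosen. The log2 fold changes of the 18 rod genes ran from 0.24 to 3.44, and the ratio depends on which of them is used. The ratio of Rdh8 to Nr2e3 was 0.154, 0.162 and 0.109 and then 0.391, 0.237 and 0.273, and did not overlap. This ratio too depends on the gene chosen, since Cnga1 (2.12) and Rp1 (3.44) had larger log2 fold changes than Rdh8.

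Other cell types gave fewer calls. Of the 11 cone markers 1 rose (Opn1mw) with a median log2 fold change of 0.26, and of the 12 Müller glia, 10 bipolar, 9 amacrine and 10 ganglion cell markers 0 passed an FDR of 0.05, with medians of -0.14, 0.40, -0.29 and 0.20. No marker of vascular cells (12 genes, median -1.73) or microglia (10 genes, median -1.10) passed either. Summed levels were nevertheless lower without overlap at 25 mM for 4 of these lists. They were 1256 to 2176 CPM against 625 to 1131 CPM for vascular cells, and 365 to 516 CPM against 144 to 309 CPM for microglia. For Müller glia they were 3950 to 4992 CPM against 2685 to 3855 CPM, and for amacrine cells 459 to 546 CPM against 283 to 417 CPM. The Müller glia sum leans on its most abundant gene, Vim, with 1264, 2204 and 2209 CPM at 5 mM and 472, 590 and 925 CPM at 25 mM. Of the 12 Müller glia markers, 5 had a log2 fold change above 0 and 7 below 0. Because CPM is a share of the whole, the part of these markers in the values of Rdh8 and Rdh12 was not tested.

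The rest of the pathway was read from 47 further genes of retinoid transport, metabolism and signaling and the opsins, of which 40 were tested. At an FDR under 0.05, 4 were called and all 4 rose, beside 1.98% of all genes, and the median log2 fold change of the 40 was -0.12. Leaving out 5 mM replicate 2 or 3, 25 mM replicate 1 or 2, or the first library of 25 mM replicate 2 brought this count to 0, as it did for all genes tested. Leaving out 5 mM replicate 1 brought it to 11, in a fit where 26.6% of all genes passed. The groups did not overlap in 7 genes that were higher and 6 that were lower, beside 16.0% and 15.8% of all genes, so this count lay near the background.

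Among 11 binding and transport genes, 10 were tested and 2 rose. Abca4 (ENSMUSG00000028125) encodes the outer segment transporter that moves the retinal adduct out of the disc so that Rdh8 can reduce it. It measured 91.8, 87.3 and 71.0 CPM at 5 mM and 404, 292 and 273 CPM at 25 mM, with wide separation of the groups. The change of 1.96 on the log2 scale, with a standard error of 0.21 and an FDR of 0.0217 (edgeR), was close to that of Rdh8. The 250 bases before its start held TAATCC at -58 and TATAAA at -119.

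Rbp3 (ENSMUSG00000041534) encodes the carrier that shuttles retinoids between photoreceptors, RPE and Müller glia. It measured 320, 358 and 336 CPM at 5 mM and 913, 578 and 701 CPM at 25 mM. The groups did not overlap, and Rbp3 rose by 1.11 on the log2 scale with a standard error of 0.21 and an FDR of 0.0456 (edgeR). Rlbp1, which encodes the 11-cis-retinal carrier of RPE and Müller glia and was named after its values were seen, had means of 303 ± 57.7 and 242 ± 24.3 CPM (SD, n = 3 each) and overlapped (log2 fold change -0.33, FDR 0.293, edgeR). Stra6l, a relative of Stra6 named likewise, had a log2 fold change of -1.03 with an FDR of 0.0801 (edgeR), opposite in sign to Stra6.

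None of the 9 tested of 13 further oxidoreductases passed the threshold. The lowest values were those of Dhrs4, a peroxisomal carbonyl reductase, at -1.11 (FDR 0.078), and Retsat, the retinol saturase, at -0.64 (FDR 0.196). The highest were those of Rdh9 at 1.08 (FDR 0.278) and Rdh1 at 0.37 (FDR 0.396, edgeR). Rdh10, the retinol dehydrogenase that feeds retinoic acid synthesis, named after its values were seen, was the most abundant of this group, averaging 151 CPM at 5 mM and 103 at 25 mM (log2 fold change -0.55, FDR 0.167, edgeR). Of the 9, 4 had a log2 fold change above 0 and 5 below 0.

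Among 6 genes of isomerization, ester formation and carotenoid cleavage, 5 were tested and 0 passed. With at least 1 CPM on average, the log2 fold changes were -0.40 for Degs1, a desaturase, and -0.04 for the carotenoid oxygenase gene Bco2, and 0.21 for Dgat1 and 0.20 for Awat2, both acyltransferases that can esterify retinol. Of 12 genes of retinoic acid synthesis, breakdown and reception, 11 were tested and 1 rose. Cyp26a1 (ENSMUSG00000024987), which degrades retinoic acid, measured 1.35, 0.905 and 0.979 CPM at 5 mM and 3.89, 3.39 and 2.87 CPM at 25 mM. All 3 replicates at 25 mM were higher, by 1.64 on the log2 scale with a standard error of 0.29 (FDR 0.0420, edgeR).

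Of 5 opsin genes, all tested, 1 rose. Opn1mw (ENSMUSG00000031394), the medium-wavelength cone opsin, measured 1.19, 1.38 and 1.15 CPM at 5 mM and 5.54, 4.02 and 2.98 CPM at 25 mM (log2 fold change 1.75, standard error 0.31, FDR 0.0420, edgeR). Opn1sw, the short-wavelength cone opsin, named after its values were seen, had the opposite sign, -1.01, with an FDR of 0.0704 (edgeR).

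**Figure D5:**
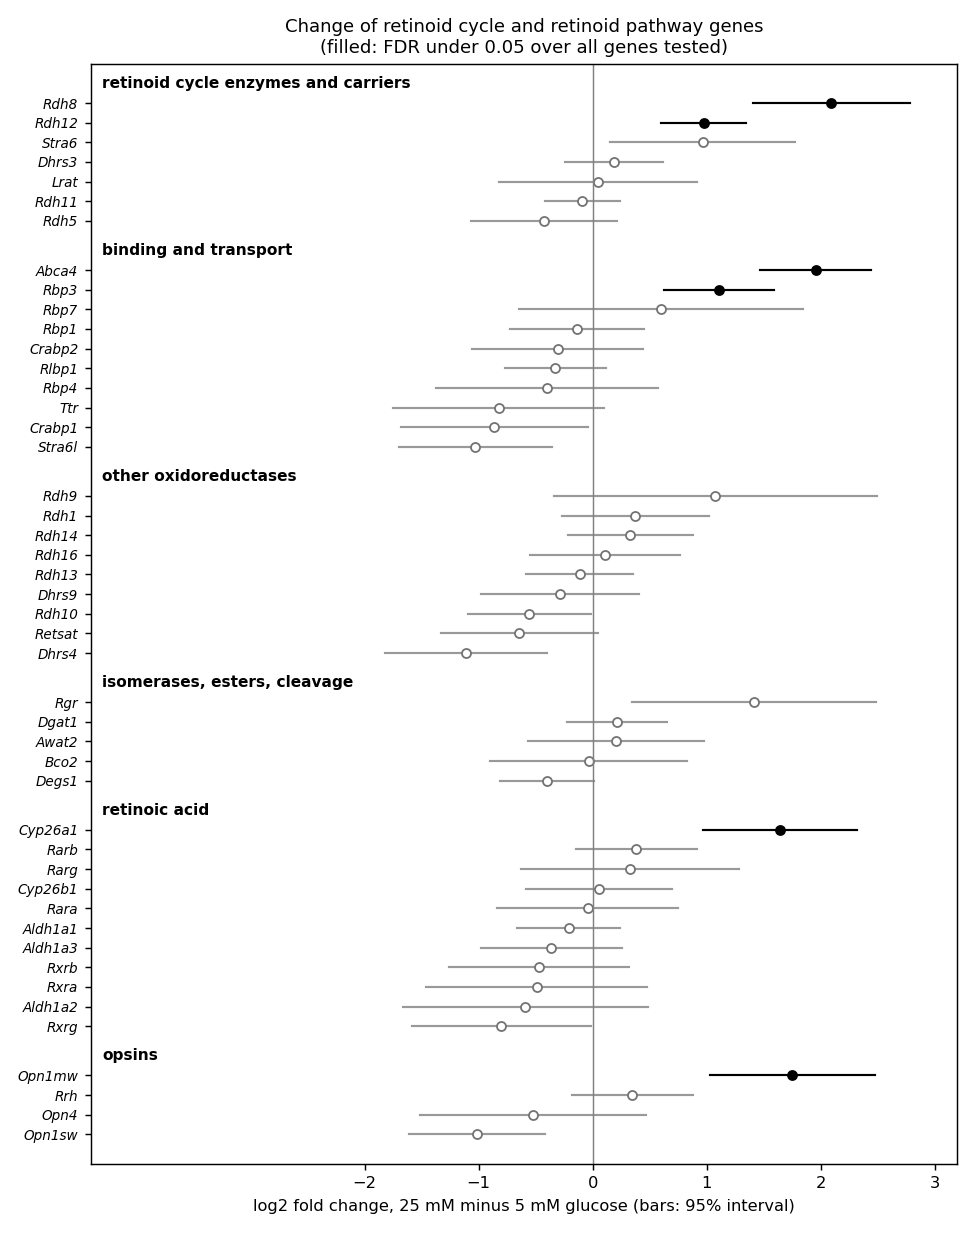
Log2 fold changes of 25 mM over 5 mM glucose (horizontal axis, bars are 95% intervals, n = 3 against 3) for the 7 tested retinoid cycle genes and tested genes of the rest of the pathway, grouped by role. Filled points had an FDR under 0.05 over all genes tested. The 6 filled points (Rdh8, Rdh12, Abca4, Rbp3, Cyp26a1 and Opn1mw) all lie above 0.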

How the data were processed

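RNA-seq tables of 12 libraries were used. The authors deposited estimated counts (expected counts) per gene and per transcript without normalization and with a column for each library. Of the gene values above 0, 100% were not whole numbers as printed, with no tolerance. The submitters' processing notes name GRCm38, and the aligner and counter are not given in the sources used here. Symbols and transcript types came from GENCODE M21, which matched 48714 of 53707 genes (90.7%) and 92.0% of 146263 transcripts.

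Technical replicates were summed, rounded, filtered with filterByExpr, scaled by TMM and tested with the quasi-likelihood method of edgeR 4.0.16 (as in version 3) under R 4.3.3, 3 replicates against 3, without a replicate block. The design spoke of counts, hence the rounding. The common biological coefficient of variation was 0.297. Alternatives used DESeq2 1.42.0, limma-voom (limma 3.58.1), other scalings and filters, each batch, and omitted replicates. The procedure was tested on simulated data. Counting intervals and floors cover counting error only, as copies of a molecule made by PCR cannot be told from separate molecules.

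The 8 genes and all lists were chosen with earlier results of these data known. Named genes were the 8, pathway genes past an FDR of 0.05 (otherwise the lowest and highest 2 of a role, at 1 CPM or more on average), the RPE markers, and the 3 genes nearest to each of the 8 in pattern over the libraries. CPM has TMM factors, and patterns use log2 CPM with a prior count of 2. TPM was computed from transcript counts and annotated lengths. Not every gene of the lists is reported here.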

Additional observations from a re-analysis of the deposited data

How the results depend on the processing

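Over 20 alternatives, of which 2 were chosen after seeing the data, the log2 fold change of Rdh8 lay between 1.45 and 3.06 and that of Rdh12 between 0.87 and 1.16. An FDR under 0.05 was kept in 14 alternatives for Rdh8 and in 13 for Rdh12, and those that lost it were batch 2 alone and fits without a replicate or library. The FDR of Rdh8 ranged from 2.03e-08 to 0.400 and that of Rdh12 from 0.000553 to 0.391. Where a replicate was left out, the number of the 8 genes past an FDR of 0.05 lay between 0 and 2, of pathway genes between 0 and 11, past a fold of 2 and an FDR of 0.01 between 0 and 0, and with groups that did not overlap between 4 and 5, beside 35.7% to 62.8% of all genes in these fits. In batch 2 alone and without the first library of 25 mM replicate 2, 0 of the 8 and 0 pathway genes passed an FDR of 0.05. At 8 each, the pathway count was higher with DESeq2 and in batch 1 alone, where 9.32% and 17.3% of all genes passed. DESeq2 gave an FDR to only 21502 of its 35141 genes, so 9.32% understates the share among genes that could pass. With DESeq2, without a filter on low counts and in batch 1 alone, 1 of the 8 passed the stricter threshold. Over all genes in these fits, in the same order, 572, 182 and 137 higher genes passed it. So did 870, 93 and 230 lower genes, among 35141 (21502 of them with an FDR), 35141 and 18969. In each batch alone, 2 of the 8 did not overlap, beside 41.4% of all genes in batch 1 and 16.1% in batch 2. Rpe65 and Lrat were not tested in these fits. Rdh11 changed sign to 0.030 with transcript counts summed per gene, and Lrat changed sign to -0.13 without 5 mM replicate 3, -0.05 without 25 mM replicate 3, -0.090 without the second library of 5 mM replicate 1 and -0.079 without the first of 25 mM replicate 2, none with an FDR under 0.05 (edgeR). The causes were not tested.

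The numbers of all genes past an FDR of 0.05, 309 higher and 108 lower, became 1229 and 2045 with DESeq2, 758 and 1221 without a filter, 1358 and 1921 in batch 1 alone, 0 and 0 in batch 2 alone and without 5 mM replicate 2, 5 mM replicate 3, 25 mM replicate 1, 25 mM replicate 2 or the first library of 25 mM replicate 2, and 886 and 845 without the second library of 5 mM replicate 1. Without 5 mM replicate 1 they were 2566 and 3279, and without 25 mM replicate 3, 288 and 206. With the replicate number as a block they were 405 and 585. Same-numbered samples of the groups correlated in their deviations from the group means at r = -0.01, -0.45 and 0.28 across genes. Not every sample correlated best with its own number. The deviations of 3 samples from their own mean depend on each other, so these values cannot decide whether the numbers pair the samples. Under this replicate block the log2 fold change was 2.06 for Rdh8 (FDR 0.0238) and 0.98 for Rdh12 (FDR 0.0404, edgeR), with 2 of the 8 genes and 3 pathway genes past an FDR of 0.05. The summed RPE marker level, log2 25 mM over 5 mM, was 0.17, and 0.23 and 0.17 in batches 1 and 2, a sum in which Krt18 is the most abundant gene, beside a median of -0.58 over the 11 markers tested.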

Other observations

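Genes with a pattern over the 12 libraries most like that of each retinoid cycle gene were found by the root mean square difference of log2 CPM, each gene centered on its own mean, among 16411 genes of at least 1 CPM. These are descriptions, and libraries of 1 sample are not independent. For Rdh8, which itself varied by 1.30 around its mean, the nearest were Edn2 (0.225), Lrit3 (0.251) and Ubap1l (0.267). Edn2 encodes an endothelin, and its means were 9.95 CPM at 5 mM and 39.5 CPM at 25 mM. For Rdh12, which varied by 0.593, the nearest were the rod phosphodiesterase gene Pde6a (0.137), the photoreceptor synapse gene Cabp4 (0.140) and Nr2e3 (0.184). Pde6a measured 246 and 512 CPM on average and Cabp4 28.5 and 59.4 CPM.

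The other genes had weaker patterns. Rdh11 varied by 0.114, hardly more than its distance from Slc39a9 (0.0878), Rnmt (0.0926) and Dctn5 (0.0930). Rdh5, at 0.320, was nearest to the small mitochondrial genes Atp5e (0.140), Smdt1 (0.151) and Tomm7 (0.160). Dhrs3, at 0.287, was nearest to Tmem159 (0.145), Plekhh2 (0.165) and Zfp839 (0.166). Stra6, at 0.810, had no close match, with AW047730 (0.476), Krt24 (0.490) and Cst7 (0.502) the nearest.

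Across its libraries Stra6 measured 0.888, 0.678 and 1.19 CPM in batch 1 and 1.27, 2.74 and 2.52 CPM in batch 2 at 5 mM, and 2.48, 1.05 and 3.78 CPM and 2.17, 3.39 and 4.48 CPM at 25 mM. Its log2 fold change was 1.40 in batch 1 (FDR 0.0961) and 0.63 in batch 2 (FDR 0.539, edgeR). In the 6 libraries of each concentration, 16 groups of the 8 genes' values were searched for a library far from the other 5, and 0 had one. These 6 libraries are technical replicates of 3 samples and not independent draws.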
